A study of Mus musculus with 4 samples.

Results

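Crossing over between homologous chromosomes was followed here through 9 genes whose products choose which recombination intermediates become crossovers and resolve them: *Msh4*, *Msh5*, *Mlh3*, *Rnf212*, *Ccnb1ip1*, *Hfm1*, *Tex11*, *Cntd1* and *Prr19*. They were taken by name, with earlier results of these data known, and 8 of the 9 were matched to a row among the 24411 genes listed. *Rnf212* was not matched under that symbol and was not analysed here. All 8 passed the filter of a mean of at least 1 TPM, an abundance corrected for transcript length, that left 14512 genes for testing.

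RNA was measured in GFP-positive male germ cells sorted at postnatal day 18 (P18) from 2 control *Zfp541*+/- testes and 2 testes with the label *Zfp541* KO, called KO-labelled here. *Zfp541* encodes a zinc-finger protein of pachytene spermatocytes, and the question was how expression in these cells differs when it is lost. The mutant allele lacks exons 1 to 13, and the controls carry it on one chromosome. All mice also carry *Rec8-3xFLAG-HA-p2A-GFP*, a knock-in that ties GFP to cells making REC8, a cohesin of meiosis. One control testis had a single copy of the knock-in and the other control was homozygous for it, as were both KO-labelled testes. The labels do not say which control library is which, so knock-in dosage cannot be fully told apart from genotype. By their labels the mice are C57BL/6 and CBA mixed, while the mutation was made in C57BL/6 eggs. Each library is from 1 testis and whether these came from separate animals is not stated, so p-values measure only the spread between these samples.

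In meiosis each pair of homologs needs at least one crossover to segregate, and most mouse crossovers follow the class I route. MSH4 and MSH5 form a sliding clamp on joined DNA, the helicase HFM1 and the scaffold protein TEX11 help to stabilize the joint, and RNF212 and CCNB1IP1 (HEI10) are RING-finger proteins that act against each other in the choice of sites. At the chosen sites CNTD1 and PRR19, which act together with CDK2, are needed for the crossover stage, and MLH3 belongs to the endonuclease that resolves the final intermediates. These proteins act from zygotene through mid pachytene, whereas the sort was meant to enrich H1t-positive cells, which are past that stage.

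Promoters are shown for 4 members. On GRCm38 with GENCODE annotation, *Hfm1* spans chromosome 5 from 106840192 to 106926321 on the minus strand and its longest transcript has 40 exons. *Prr19* spans chromosome 7 from 25301411 to 25304132 on the plus strand, with 3 exons. *Cntd1* spans chromosome 11 from 101279012 to 101296317 on the plus strand, and *Msh4* spans chromosome 3 from 153857149 to 153906138 on the minus strand. The windows below run from 250 bases before to 50 bases after the start that RefSeq gives on GRCm38.p6, 5′ to 3′ on the gene's strand. They are chr5:106925841-106926140 for *Hfm1*, chr7:25301109-25301408 for *Prr19*, chr11:101278953-101279252 for *Cntd1* and chr3:153904842-153905141 for *Msh4*. GENCODE starts *Hfm1*, *Cntd1* and *Msh4* further upstream than RefSeq does. The *Hfm1* and *Msh4* windows thus lie wholly inside the GENCODE spans, and that of *Cntd1* lies partly inside. GENCODE starts *Prr19* just downstream of its window. They are shown because *Hfm1* had the greatest log2 fold change on TPM as deposited, *Prr19* was the member that was lower, *Cntd1* works with *Prr19*, and *Msh4* is a clamp gene whose libraries varied little within a group. Capitals mark the core of the MYB motif, CCGTT, or the NRF1 letters, GCATGCGC, on either strand.
*Hfm1*: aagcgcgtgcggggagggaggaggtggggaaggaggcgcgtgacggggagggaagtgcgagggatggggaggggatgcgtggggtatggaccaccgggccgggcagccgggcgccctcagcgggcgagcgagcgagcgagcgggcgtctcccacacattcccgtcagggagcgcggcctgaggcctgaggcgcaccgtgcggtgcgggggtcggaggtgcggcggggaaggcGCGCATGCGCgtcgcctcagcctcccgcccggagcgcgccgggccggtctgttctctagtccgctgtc
*Prr19*: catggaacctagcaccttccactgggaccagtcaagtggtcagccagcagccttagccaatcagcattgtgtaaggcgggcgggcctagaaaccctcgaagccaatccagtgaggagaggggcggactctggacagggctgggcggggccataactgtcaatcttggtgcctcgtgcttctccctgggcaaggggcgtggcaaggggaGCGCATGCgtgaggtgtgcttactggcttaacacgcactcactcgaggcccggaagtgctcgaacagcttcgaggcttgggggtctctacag
*Cntd1*: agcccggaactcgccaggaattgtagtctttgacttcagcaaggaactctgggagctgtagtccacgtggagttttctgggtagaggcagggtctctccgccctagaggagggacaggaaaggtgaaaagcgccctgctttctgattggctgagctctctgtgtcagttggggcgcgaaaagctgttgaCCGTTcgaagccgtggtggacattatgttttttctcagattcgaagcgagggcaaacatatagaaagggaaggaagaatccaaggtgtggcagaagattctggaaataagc
*Msh4*: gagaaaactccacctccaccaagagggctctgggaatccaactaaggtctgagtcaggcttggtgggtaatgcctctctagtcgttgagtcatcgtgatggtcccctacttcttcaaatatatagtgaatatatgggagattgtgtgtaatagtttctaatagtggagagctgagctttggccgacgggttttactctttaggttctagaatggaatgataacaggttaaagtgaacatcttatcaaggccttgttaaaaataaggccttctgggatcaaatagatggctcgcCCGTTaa

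The NRF1 letters were found in 5 of the 8 members that have a RefSeq window, namely *Ccnb1ip1*, *Hfm1*, *Mlh3*, *Prr19* and *Rnf212*, against 2.71% of all 32851 windows of this length. In *Hfm1* the site reads the same on both strands, so that 2 matches overlap. The MYB core was found in 3 members, *Cntd1*, *Msh4* and *Msh5*, against 17.4% of all windows. The letters CCTCAGG, which STRA8 and MEIOSIN are known to favour, were found in 1 of these 8 windows, that of *Hfm1*, against 7.82% of all windows. Of the other motifs searched on both strands, CCAAT was in 5 members (37.4% of all windows), CACGTG, which reads the same on both strands, in 2 (7.15%) and GTTGCC in 1 (12.5%). GC content ran from 43.3% in the *Msh4* window to 75.3% in the *Hfm1* window, around a median of 52.7% over all windows. The NRF1 letters hold a CpG (C followed by G), and the 5 windows with them had 13 to 41 CpG. The median over all windows was 7, and the other members had 6 (*Msh4*), 12 (*Cntd1*) and 27 (*Msh5*). The motifs were chosen with these sequences and expression values in view. A match describes the letters only, and *Prr19*, the lower member, shares the NRF1 letters with *Hfm1*.

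The libraries need a word before the values. TPM sums to one total in every library and holds no read depth, so how precise a value is at its depth is unknown. *Zfp541* itself stood at 112 and 72.2 TPM in controls 1 and 2, against 136 and 151 TPM in the KO-labelled libraries (log2 fold change 0.67, SE 0.28, limma adjusted p = 0.371), so the transcript level did not fall with the label and every direction below rests on the labels. *Rec8*, the gene behind the sort, stood at 7.05 and 27.9 TPM in controls 1 and 2, against 27.7 and 19.4 TPM in the other pair. Its log2 fold change was 0.67 with an SE of 0.70. The controls stood further from each other (distance 153 over all genes on the log2 scale) than the KO-labelled libraries did (49.2). Of 7 Leydig cell markers the summed level was 3640 TPM in control 1 but 19.4 TPM in control 2, where *Lhcgr* was at 0, and it was 400 and 619 TPM in the other pair. Of 7 macrophage and red blood cell markers the sums were 2107 and 38.8 TPM in controls 1 and 2, against 1713 and 1273 TPM in the other pair, with *Hbb-bs* at 0 in every library but KO-labelled library 2. The 8 Sertoli cell markers summed to 344 and 489 TPM in controls 1 and 2, against 485 and 396 TPM in the other pair, with none at 0. The part of these other cells in the results below was not tested.

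Most of the crossover genes had higher values in the KO-labelled libraries, and *Prr19* had lower values. Their summed level was 681 and 625 TPM in controls 1 and 2, against 971 and 1007 TPM in the KO-labelled libraries. Of the 8 genes, 7 had a log2 fold change above 0, with *Hfm1*, *Msh5* and *Msh4* at the top, and *Prr19* alone was lower. None passed an FDR of 0.05 in limma, in either direction, where the background was 0% of all genes higher and 0% lower. The smallest adjusted p among all 14512 genes was 0.310.

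Without a model, 5 members had both values of the KO-labelled libraries above both control values, beside 38.6% of all genes tested, and 1 had both below, beside 12.1%. At an unadjusted p under 0.05 in limma, 4 members were higher (*Hfm1*, *Msh4*, *Msh5* and *Cntd1*) beside 10.7% of all genes, and *Prr19* was lower beside 3.73%. The median log2 fold change of the members was 0.65 and that of all genes tested was 0.28, since 69.0% of all genes had a value above 0. In these bulk samples, a difference in the share of cells of one stage and a difference in RNA per cell cannot be told apart.

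**Figure D1:**
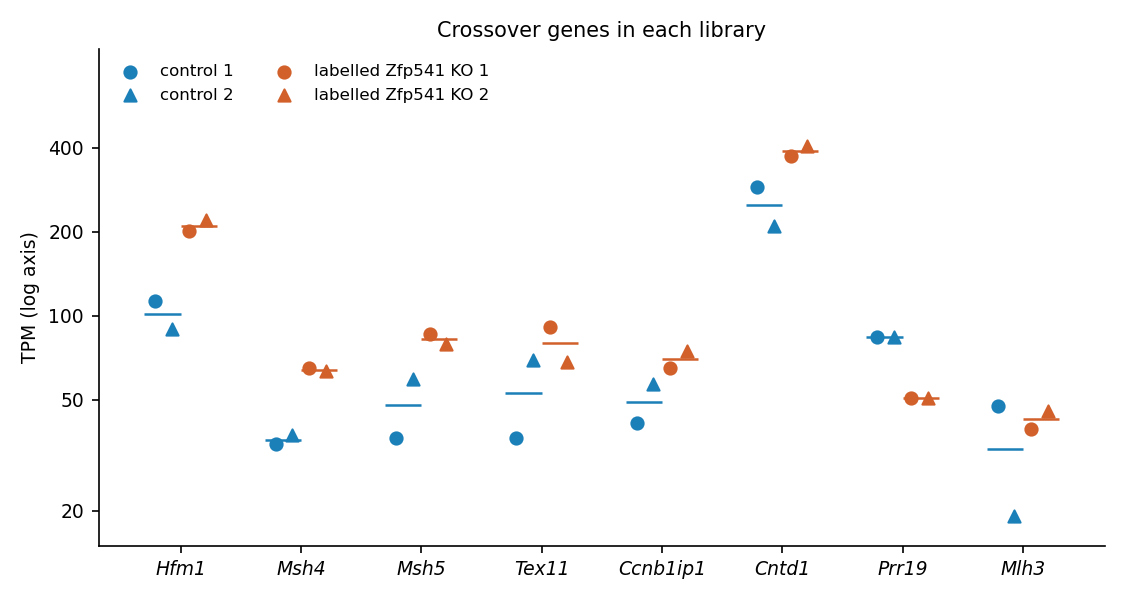
TPM (log axis) of the 8 crossover genes in each library, with points for single libraries and short lines for the mean of each group (n = 2). *Prr19* is the gene whose 2 points for the KO-labelled libraries lie below both controls, while *Mlh3* and *Tex11* overlap between the groups.

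Levels in TPM can be set beside each other between genes, and their order differed between the groups mainly in the place of *Prr19*. In the controls *Cntd1* was highest with a mean of 249 TPM, followed by *Hfm1* at 101 TPM and *Prr19* at 83.8 TPM, each with a range apart from the next. *Tex11*, *Ccnb1ip1*, *Msh5*, *Msh4* and *Mlh3* followed between 53.0 and 33.2 TPM, and the ranges of neighbours in that order overlapped. In the KO-labelled libraries *Cntd1* (389 TPM) and *Hfm1* (210 TPM) again led with ranges apart, while the range of *Tex11* overlapped those of *Msh5* and *Ccnb1ip1*, which did not overlap each other. *Msh4* came next, just below *Ccnb1ip1*, and *Prr19* stood between *Msh4* and *Mlh3* with a range apart from both. The abundance of *Prr19* thus stood above those of *Msh4*, *Msh5*, *Tex11* and *Ccnb1ip1* in both controls and below them in both other libraries.

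The MutSγ clamp genes were both higher. *Msh4* stood at 34.6 and 37.4 TPM in controls 1 and 2, against 64.8 and 63.2 TPM in the KO-labelled libraries. The 2 pairs did not overlap, and the 4 differences between a library of one group and a library of the other ran from 0.74 to 0.89 on the log2 scale. Its log2 fold change was 0.81 (SE 0.20, limma adjusted p = 0.310), or 1.78-fold between the means.

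*Msh5*, on chromosome 17 from 35028605 to 35046745 on the minus strand, encodes the partner of MSH4. It stood at 36.4 and 59.2 TPM in controls 1 and 2, against 86.1 and 79.4 TPM in the KO-labelled libraries. The groups again did not overlap, but the controls lay 0.69 apart on the log2 scale. Its log2 fold change was 0.82 (SE 0.30, limma adjusted p = 0.343).

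*Hfm1*, the meiotic helicase gene, had the greatest log2 fold change of the 8 on TPM as deposited with all 4 libraries, though not after median-ratio scaling, where that of *Prr19* was larger in size, or without control 2, where those of *Msh5* (1.164) and *Tex11* (1.10) exceeded its 0.89. It stood at 113 and 89.7 TPM in controls 1 and 2, against 200 and 220 TPM in the KO-labelled libraries, 2.08-fold between the means. Both control values lay below both others, and its log2 fold change was 1.06 (SE 0.21, limma adjusted p = 0.310). Its percentile among all genes listed, whether tested or not, by TPM, was 91.7 and 90.9 in the controls and 96.0 and 96.4 in the other pair. Its longest annotated transcript has 5018 bases.

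*Tex11*, the X-linked member (X chromosome, 100838648 to 101059667, minus strand), did not separate the groups. It stood at 36.4 and 69.7 TPM in controls 1 and 2, against 91.4 and 68.4 TPM in the KO-labelled libraries. Control 2 lay just above the lower of the latter, and the log2 fold change of 0.64 had an SE of 0.39 (limma adjusted p = 0.488). The SD of its TPM was 23.5 in the controls and 16.3 in the other pair.

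*Ccnb1ip1*, on chromosome 14 from 50789248 to 50807732 on the minus strand, encodes HEI10, which limits the number of sites held by the pro-crossover factors. It stood at 41.1 and 57.0 TPM in controls 1 and 2, against 64.8 and 74.7 TPM in the KO-labelled libraries. The groups did not overlap by a margin of 0.18 on the log2 scale, and the log2 fold change was 0.51 (SE 0.25, limma adjusted p = 0.413). Its annotated exons share 233 bases with the ribozyme gene *Rpph1* on the same strand, or 12.4% of its exonic bases. *Rpph1* stood at 0.96 and 5.29 TPM in controls 1 and 2, against 1.75 and 9.98 TPM in the other pair.

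*Mlh3*, the gene of the endonuclease subunit (chromosome 12, 85234520 to 85270599, minus strand), was the member with the widest spread on the log2 scale. It stood at 47.3 and 19.2 TPM in controls 1 and 2, against 39.3 and 45.7 TPM in the KO-labelled libraries. The controls differed by 1.26 on the log2 scale, more than the log2 fold change of 0.47 between the groups (SE 0.48, limma adjusted p = 0.663). Without control 2 the log2 fold change of *Mlh3* was -0.15, and without control 1 it was 1.10.

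*Cntd1* and *Prr19*, whose products work together at crossover sites, lay on opposite sides. *Cntd1* stood at 288 and 209 TPM in controls 1 and 2, against 374 and 405 TPM in the KO-labelled libraries. The groups did not overlap, and the log2 fold change was 0.66 (SE 0.24, limma adjusted p = 0.343). *Becn1* runs on the opposite strand next to it, and 3104 bases, or 70.2% of the exonic bases that GENCODE gives *Cntd1*, are also exonic in *Becn1*. In the RefSeq models the 2 spans share 444 bases, and whether the authors' counting used strand is not stated, so reads of the pair cannot be told apart there. *Becn1* stood at 231 and 190 TPM in controls 1 and 2, against 238 and 261 TPM in the other pair.

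*Prr19* stood at 83.9 and 83.6 TPM in controls 1 and 2, against 50.7 and 50.9 TPM in the KO-labelled libraries. The means were 83.8 ± 0.205 TPM and 50.8 ± 0.141 TPM (SD, n = 2), so the gap was far wider than the spread within either pair. Its log2 fold change was -0.71 (SE 0.18, limma adjusted p = 0.310), with an SE that limma widens toward the spread of genes at a like level. The percentile of *Prr19* among all genes listed, whether tested or not, was 88.7 and 90.3 in the controls and 80.8 and 80.9 in the other pair. Its share of the summed TPM of the 8 members was 12.3% and 13.4% in the controls and 5.22% and 5.05% in the other pair. No gene annotated by GENCODE shares exonic bases with it.

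**Figure D2:**
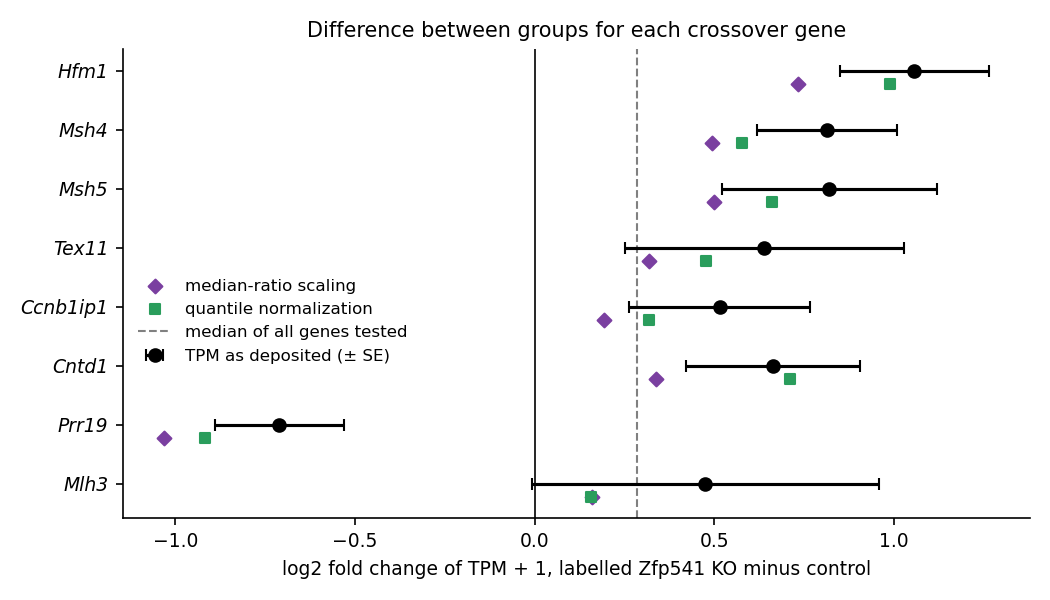
Log2 fold change of TPM + 1 for each crossover gene (KO-labelled libraries minus controls), with bars for the SE from limma and smaller marks for median-ratio scaling and quantile normalization. *Prr19* lies below 0 on all 3 scales and *Hfm1* above the dashed median of all genes tested (0.28), which belongs to the TPM as deposited.

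The values depended on how the libraries were scaled. Median-ratio scaling took the median log2 fold change of all genes from 0.28 to -0.0044 and that of the members to 0.33. Quantile normalization took them to 0.077 and 0.53. The members' median minus that of all genes was 0.37 for TPM as deposited, 0.33 after median-ratio scaling and 0.45 after quantile normalization. On the median-ratio scale the members that did not overlap were *Hfm1*, *Msh4* and *Cntd1*, higher beside 23.1% of all genes, and *Prr19*, lower beside 22.3%. At an unadjusted p under 0.05 in limma, median-ratio scaling gave 4.33% of all genes higher and 7.43% lower, with 1 member higher and 1 lower. Quantile values gave 6.96% and 6.95%, with 2 members higher and 1 lower. All 7 members with a positive log2 fold change kept that sign on both scales. *Hfm1* had log2 fold changes of 0.73 and 0.99 on the median-ratio and quantile scales, and *Prr19* had -1.03 and -0.92.

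The calls depended on which control was kept. When control 1 was left out, *Msh4*, *Msh5*, *Mlh3*, *Hfm1* and *Cntd1* were called higher and *Prr19* lower at an FDR of 0.05 in limma, with 5610 genes (38.7%) called higher and 1375 (9.47%) lower in all. When control 2 was left out, *Msh4*, *Msh5*, *Ccnb1ip1*, *Hfm1* and *Tex11* were called higher and *Prr19* lower, with 2248 (15.5%) and 1875 (12.9%) called in all. In both cases the lone control is assumed to vary as little as the KO-labelled libraries do. Both fits use the same KO-labelled libraries, so they are not independent, and the share of all genes called in both was not computed. When a KO-labelled library was left out, the lone one was assumed to vary as the controls do. The median log2 fold change of the members was then 0.67 without KO-labelled library 1 and 0.72 without KO-labelled library 2.

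Ratios of partner transcripts within a library do not change when all its values are scaled by a single factor, and 2 were compared between the groups. The *Msh4* to *Msh5* ratio was 0.951 and 0.633 in the controls and 0.752 and 0.795 in the KO-labelled libraries. The second pair lay inside the range of the controls, and the difference of the log2 ratios was -0.0037. The two-sided exact permutation p was 1.

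The *Cntd1* to *Prr19* ratio stood apart. It was 3.44 and 2.50 in the controls and 7.37 and 7.95 in the KO-labelled libraries. The log2 ratio was 1.55 ± 0.32 in the controls and 2.94 ± 0.078 in the other pair (SD, n = 2), and the difference was 1.39. The two-sided exact permutation p was 0.333, the smallest that 2 against 2 samples can give, and 0.667 after adjustment over the 2 ratios. Leaving out each library in turn kept the difference between 1.156 and 1.61. The overlap of *Cntd1* with *Becn1* applies to this ratio too.

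**Figure D3:**
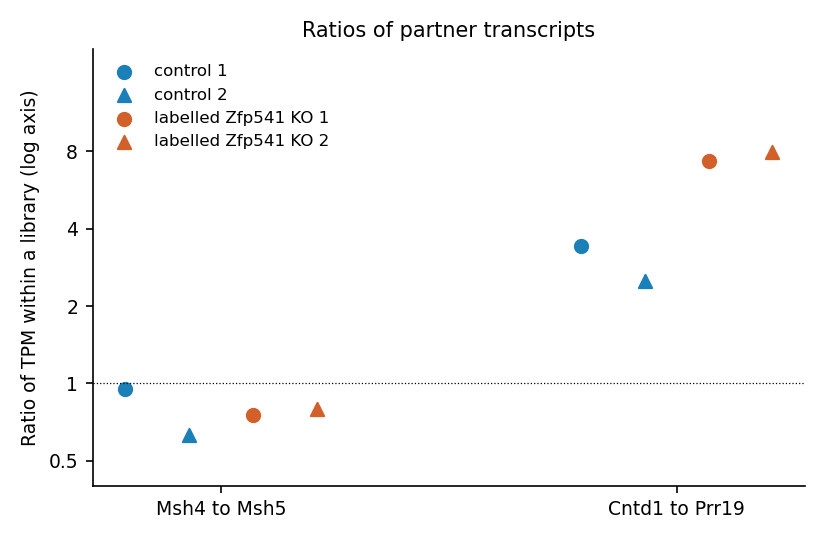
Ratio of TPM within each library (log axis) for *Msh4* to *Msh5* and *Cntd1* to *Prr19*, with 1 point per library. The *Cntd1* to *Prr19* ratio is 7.37 and 7.95 in the KO-labelled libraries, above 3.44 and 2.50 in the controls, while the *Msh4* to *Msh5* ratios overlap.

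Of 13 leptotene and zygotene markers that were matched, 12 had a log2 fold change above 0 and 10 were higher in both KO-labelled libraries, beside 69.0% and 38.6% of all genes tested. Their median was 0.86, with sums of 2233 and 2902 TPM in the controls against 4551 and 4589 TPM. *Mei4*, a gene of double-strand break formation, was highest with 2.09 and 4.60 TPM against 9.91 and 8.20 TPM (log2 fold change 1.27, limma adjusted p = 0.347). *Spo11*, which encodes the break-making enzyme, was lowest with 95.1 and 66.9 TPM against 64.2 and 79.6 TPM (-0.16, limma adjusted p = 0.802). At an unadjusted p under 0.05 in limma, 6 of the 13 were higher and none lower, beside 10.7% and 3.73% of all genes tested.

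Of 15 pachytene markers, 12 had a log2 fold change below 0 and 3 above, while 69.0% of all genes tested were above 0. In both KO-labelled libraries 6 were lower and 2 higher, beside 12.1% and 38.6% of all genes. The median log2 fold change of the markers was -0.49. It was -0.020 without control 1 and -1.14 without control 2, so its size rested on which control was kept. They summed to 9878 and 4720 TPM in controls 1 and 2, against 3746 and 5125 TPM in the KO-labelled libraries, so the sums overlapped. At an unadjusted p under 0.05 in limma, 4 were lower and 1 higher, beside 3.73% and 10.7% of all genes tested. *Pou5f2*, a germ-cell transcription factor gene, was lowest with 70.5 and 6.31 TPM against 0.33 and 0.14 TPM (-4.22, limma adjusted p = 0.315), and *Calr3*, a testis chaperone gene, highest with 4.82 and 8.40 TPM against 20.6 and 20.5 TPM (1.54, limma adjusted p = 0.310). The sorted cells are described as rich in H1t-positive spermatocytes, but *Hist1h1t*, which encodes H1t, was between 1.00 and 2.55 TPM in all 4 libraries. These libraries were selected for poly(A), which most replication-type histone mRNAs lack.

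Of 11 spermatogonia markers, 7 had a log2 fold change above 0 and 4 below, while 69.0% of all genes tested were above 0. Their median was 0.045, against 0.28 for all genes tested. In both KO-labelled libraries 2 were higher and 0 lower, beside 38.6% and 12.1% of all genes. None had an unadjusted p under 0.05 in limma, beside 10.7% of all genes higher and 3.73% lower. They summed to 417 and 893 TPM in controls 1 and 2, against 602 and 549 TPM in the other pair. *Nanos3* was highest (0.73 and 1.88 TPM against 3.34 and 1.91 TPM, 0.67) and *Sohlh1* lowest (16.1 and 64.3 TPM against 27.3 and 22.4 TPM, -0.38). Of 8 round spermatid markers 2 passed the filter on low values, and the 8 summed to 18.4 and 15.7 TPM in controls 1 and 2, against 29.5 and 29.5 TPM in the other pair. *Spaca1*, an acrosome gene, was at 7.34 and 13.9 TPM against 27.0 and 26.6 TPM (1.32) and *Tnp2* at 7.59 and 0 TPM against 0.46 and 0.75 TPM (-0.87). The protamine gene *Prm1* was listed at 0 in all libraries but control 1, where it was at 1.48 TPM. The part of prophase stage in the values of the crossover genes was not tested.

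Set against *Sycp3*, which encodes the axis protein of the same cells, the crossover genes mostly overlapped between the groups. *Sycp3* stood at 1108 and 1263 TPM in controls 1 and 2, against 2093 and 2196 TPM in the KO-labelled libraries (log2 fold change 0.86). *Msh4* stood at 3.12% and 2.96% of the *Sycp3* level in the controls and at 3.09% and 2.88% in the other pair. *Hfm1* stood at 10.2% and 7.10% in the controls and at 9.57% and 10.02% in the other pair, and *Cntd1* at 26.0% and 16.6% against 17.9% and 18.4%. For each of these 3 genes the groups overlapped on this scale.

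Relative to *Sycp3*, *Prr19* was at 7.57% and 6.62% in the controls and at 2.42% and 2.32% in the KO-labelled libraries, a log2 difference of -1.57. *Ccnb1ip1* was at 3.71% and 4.51% in the controls and at 3.10% and 3.40% in the other pair (-0.34). These 2 were lower in both libraries, none was higher in both, and 6 overlapped, whereas 56.0% of all genes tested were lower in both on this scale and 2.42% higher. Relative to the mean log2 level of the 13 leptotene and zygotene markers, *Prr19* was lower in both (-1.47) and the other 7 overlapped, beside 42.7% of all genes lower and 2.07% higher. Relative to the mean of the 15 pachytene markers, 7 members were higher in both and *Prr19* overlapped, beside 78.8% of all genes higher and 2.30% lower, so that count is near the background. These relative levels were computed after the values were seen and have no test.

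**Figure D4:**
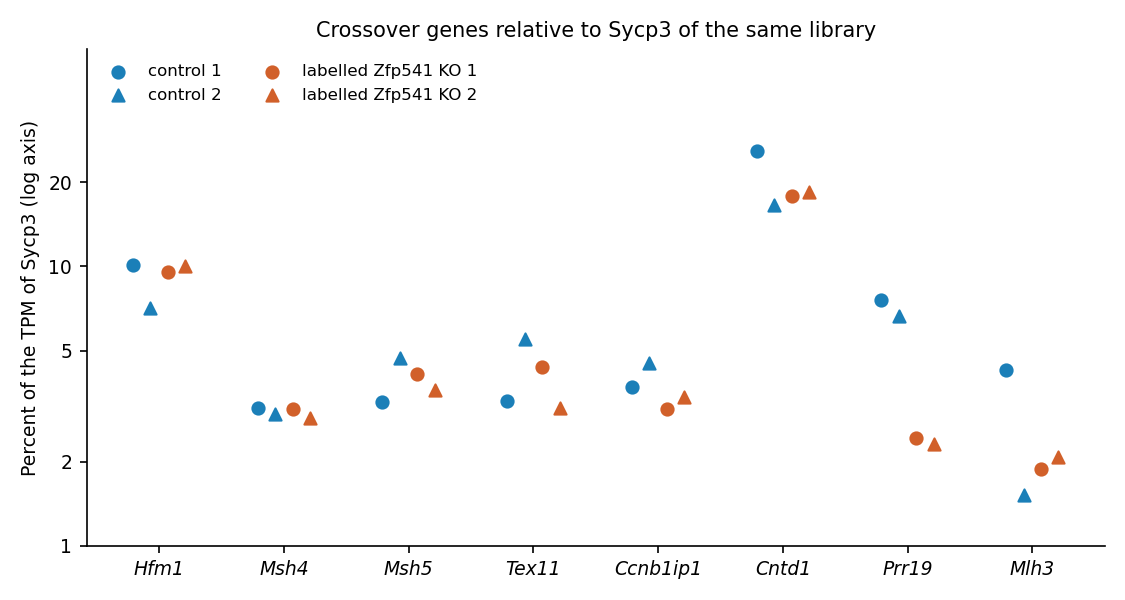
TPM of each crossover gene as a percent of the TPM of *Sycp3* in the same library (log axis), with 1 point per library. *Prr19* is at 2.42% and 2.32% in the KO-labelled libraries against 7.57% and 6.62% in the controls, and 6 of the 8 genes overlap.

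Of the other genes of the class I route, 2 are given here, and *Shoc1*, *Spo16* and *Rnf212b* were not analysed here. *Exo1*, an exonuclease gene, was at 12.98 and 18.6 TPM in the controls against 20.5 and 17.6 TPM (log2 fold change 0.27, limma adjusted p = 0.713). *Cdk2*, the kinase gene, was at 139 and 129 TPM against 146 and 137 TPM (0.079, limma adjusted p = 0.850). *Exo1* and *Cdk2* overlapped between the groups.

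Genes that turn intermediates away from crossing over were higher in both libraries for all 7 listed, beside 38.6% of all genes tested. These are the helicases and the dissolution complex, among them *Blm* and *Top3a*, and their median log2 fold change was 0.87, against 0.51 without control 2 and 0.58 after median-ratio scaling. *Fancm*, a helicase gene that limits crossovers, was highest with 10.8 and 6.73 TPM against 18.1 and 19.4 TPM (1.05, limma adjusted p = 0.334). *Rtel1* was lowest with 46.7 and 27.8 TPM against 49.0 and 57.8 TPM (0.55, limma adjusted p = 0.482). At an unadjusted p under 0.05 in limma, 2 of the 7 were higher, beside 10.7% of all genes tested.

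Structure-selective nucleases, which serve crossing over outside the class I route, had a median log2 fold change of 0.25, with 6 of 8 above 0 and 3 higher in both, which is near the 69.0% and 38.6% of all genes tested. *Gen1*, the Holliday junction resolvase gene, was highest with 9.82 and 10.7 TPM against 21.99 and 22.2 TPM (1.04, limma adjusted p = 0.315). *Ercc1*, which encodes a partner of XPF, was lowest with 44.9 and 86.8 TPM against 54.6 and 44.6 TPM (-0.33, limma adjusted p = 0.699). No class I or nuclease gene of these lists passed an FDR of 0.05 in limma. At an unadjusted p under 0.05 in limma, 1 nuclease gene was higher and none lower, beside 10.7% and 3.73% of all genes tested.

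**Figure D5:**
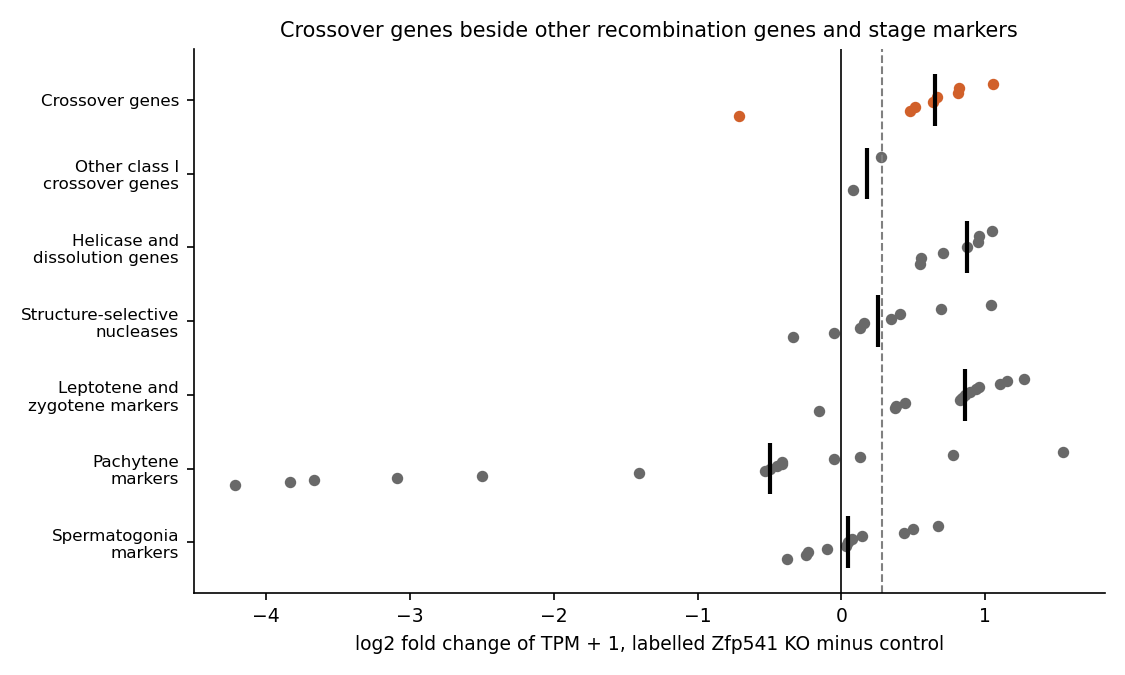
Log2 fold change of TPM + 1 (KO-labelled libraries minus controls) for each tested gene of the crossover set, the other recombination lists and the germ cell marker lists, with a short bar at each list's median and a dashed line at the median of all genes tested (0.28). The helicase and dissolution genes (median 0.87) and the leptotene and zygotene markers (median 0.86) lie mostly to the right of it, and the pachytene markers (median -0.49, but -0.020 without control 1) mostly to the left.

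The genes outside the set whose profile over the 4 samples lay nearest to the mean profile of the 8 members were *Qsox2*, *Hdgfrp3* and *Maz*, at Euclidean distances of 0.017, 0.031 and 0.035 on the centred log2(TPM + 1) scale. *Qsox2*, a sulfhydryl oxidase gene, stood at 89.7 and 89.6 TPM in controls 1 and 2, against 131 and 132 TPM in the KO-labelled libraries. *Maz*, a zinc-finger gene, stood at 214 and 221 TPM in controls 1 and 2, against 318 and 313 TPM in the other pair. *Hdgfrp3* was at 40.1 and 41.1 TPM against 60.3 and 60.2 TPM.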

How the data were processed

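GFP-positive P18 spermatocytes of 2 control *Zfp541*+/- testes and 2 testes labelled *Zfp541* KO were profiled by poly(A) RNA-seq. The authors trimmed reads with Trim Galore 0.5.0 (cutadapt 1.16), aligned them to UCSC mm10 with STAR 2.6.0a and estimated expression with RSEM 1.3.1, the deposited unit being TPM per gene. Estimated counts were not used here. Samples were grouped by their labels. Genes averaging 1 TPM or more were fitted by genotype on log2(TPM + 1) with limma 3.58.1 in R 4.3.3, using a variance trend and adjusting p-values by Benjamini-Hochberg over all 14512 genes (FDR 0.05). Such fold changes understate the change of low genes. A date stands where a symbol belongs in 27 rows, which were fitted but not named.

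Named were all members, the other class I genes, the highest and lowest gene of each other list by log2 fold change, *Zfp541*, *Rec8* and the 3 nearest profiles. Other genes, such as *Becn1*, *Sycp3*, *Hist1h1t*, *Prm1* and *Lhcgr*, were chosen after their values were seen. Members and lists were chosen with earlier results of these data known. Percents of *Sycp3* and partner ratios used TPM without a pseudocount, and log2 differences relative to markers used log2(TPM + 1). Some genes of the planned lists, and 1 ratio that needs one of them, are not reported here. The lists were those of the report, with *Meiosin*, *Shoc1*, *Spo16* and *Rnf212b* unmatched. The fit was tested on simulated data. Alternatives covered the pseudocount, the filter, scaling, variance trend, the replicate block and leaving out each library.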

Additional observations from a re-analysis of the deposited data

How the results depend on the processing

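No member was called at an FDR of 0.05 under any pseudocount, filter, scaling, variance model or block tried. Leaving out each library in turn gave 5 to 6 members higher and 1 to 2 lower with no overlap between the groups, and a median of 0.62 to 0.81. Of all genes, 65.8% were higher and 25.0% lower with no overlap without control 1, and 52.9% and 36.0% without control 2. These shares were 42.9% and 15.65% without KO-labelled library 1, and 46.7% and 15.72% without KO-labelled library 2. At an unadjusted p under 0.05, 1 member was higher after median-ratio scaling (4.33% of all genes), 2 after quantile normalization (6.96%) and 2 without a variance trend (9.60%). In each of these settings 1 member was lower, beside 7.4%, 6.95% and 3.49% of all genes. Median-ratio scaling left 3 members higher in both and a median of 0.33, and quantile normalization a median of 0.53.

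The replicate numbers of the labels were not found to pair the samples (correlation of deviations -0.16 over genes). With the replicate block, 1 member was higher and 0 lower at an unadjusted p under 0.05, beside 4.52% and 3.11% of all genes. With the numbers crossed, a block added after the data were seen, 7 genes were called higher and 80 lower in all, none a member.

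The *Msh4* to *Msh5* difference ran from -0.30 to 0.29 with a library left out, with 0.29 without control 1 and 0.036 without KO-labelled library 1. The *Cntd1* to *Prr19* difference ran from 1.156 to 1.61. The log2 fold change of *Mlh3* ran from -0.15 without control 2 to 1.10 without control 1. The pachytene median ran from -1.14 without control 2 to -0.020 without control 1. List medians changed sign for other class I genes (-0.14, median-ratio), nucleases (-0.059 median-ratio, -0.017 quantile, -0.058 to 0.52 with a library left out, the lowest without control 2), spermatogonia (-0.21 median-ratio, -0.14 quantile, -0.025 to 0.36 with a library left out, the lowest without KO-labelled library 1) and round spermatid markers (-0.12 without a filter, -0.35 to 0.79 with a library left out, the lowest without control 2). The cause was not tested, and depth is unknown from TPM.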

Other observations

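The recombination genes did not all differ in the same way between the controls. *Slx4*, a nuclease scaffold gene, was at 66.6 TPM in control 1 and 19.6 TPM in control 2, and at 45.1 and 52.1 TPM in the KO-labelled libraries. *Blm* and *Rmi1* were also higher in control 1, at 41.0 and 86.3 TPM against 21.5 and 43.1 TPM in control 2. *Stra8*, a gene of meiotic entry, was instead higher in control 2, at 189 TPM against 69.0 TPM in control 1. *Mlh3* went with the former genes and *Msh5* and *Tex11* with *Stra8*. These genes were picked after their values were seen, and no test was made.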
